A study of Homo sapiens with 6 samples.

Results

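The signal recognition particle (SRP) genes described here are SRP9, SRP14, SRP19, SRP54, SRP68 and SRP72, which encode the protein subunits of the particle, and SRPRA and SRPRB, which encode its receptor. They were taken as the isoforms whose Ensembl gene ID carries one of these symbols. All 8 genes had reads, and they held 49 of the 63224 isoforms and made up 8 of the 24220 genes and loci in the count table. The set was chosen with results of these libraries known, and was selected on the measured shares of reads at a pair of 3′ splice sites in SRP19, so every SRP19 difference between the genotypes is given as a description with no test. The other 7 genes are the rest of the protein set of the particle and its receptor.

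The SRP is an RNA and protein complex that binds the signal sequence of a secretory or membrane protein as it leaves the ribosome and brings the ribosome to the endoplasmic reticulum. SRP9 and SRP14 form the Alu domain, which slows elongation, while SRP19, SRP54, SRP68 and SRP72 belong to the S domain, where SRP54 reads the signal sequence. At the membrane the receptor subunits SRPRA and SRPRB receive the particle, and the nascent chain passes to the SEC61 channel.

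The study sequenced full-length cDNA from HBEC3kt cells, a line of human bronchial epithelial cells immortalised with CDK4 and telomerase, to compare RNA processing between U2AF1 S34F mutant and wild-type (WT) cells. U2AF1 encodes the smaller protein of the U2AF dimer and recognises the AG dinucleotide that closes an intron, and S34F is a recurrent mutation in lung adenocarcinoma and myeloid disease. Each genotype had 3 libraries. For S34F, replicate 1 came from isolate MT1 and replicates 2 and 3 from isolate MT2, and for WT, replicate 1 came from isolate WT1 and replicates 2 and 3 from isolate WT2. Replicates 1 and 2 of both genotypes carry the label B1 and replicate 3 the label B2, a term the labels do not explain. They also do not say how the mutation was introduced or whether an isolate is 1 clone. With 2 isolates per genotype, the p-values below measure the spread between libraries, part of which may be technical. For splicing events and 3′ ends, the edgeR fits took this spread wholly from all events or ends together. Those p-values therefore leave out the own spread of an event or end between libraries.

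The S34F libraries held 811255, 451540 and 1014868 reads assigned to isoforms, and the WT libraries 1720292, 1286512 and 1584167. The 8 genes took between 0.112% and 0.151% of the reads in S34F libraries and between 0.118% and 0.165% in WT libraries. All 9 basal epithelial markers looked for had reads, with a summed level of 4831 to 8095 CPM (read counts scaled to a common library total) in S34F and 5160 to 6246 CPM in WT, while none of the 5 fibroblast, 4 blood and 5 secretory or ciliated markers had an entry in the table. U2AF1 itself stood at 536, 418 and 242 CPM in S34F libraries and at 500, 569 and 303 CPM in WT libraries, and its level does not check a point mutation. CPM here counts reads of Smart-Seq2 cDNA without division by length, and levels of different genes are set side by side on that scale. Reads were not reduced to original molecules here, so the scale need not follow molecule numbers. Long models, such as the 3029 bases of SRPRA against the 983 of SRP14, may still be read less often in full.

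SRP14 was the most abundant of the 8 messages in both genotypes, at a mean of 850 ± 209 CPM in S34F and 749 ± 225 CPM in WT libraries (SD, n = 3 each), and it lay above every other member in 6 of 6 libraries. SRP54 and SRPRA, the subunits that each carry a GTPase and meet at the membrane, were the least abundant, at means of 30.3 and 28.5 CPM in S34F and 18.4 and 37.3 CPM in WT. Between these ends, the order over all libraries was SRPRB, SRP19, SRP9, SRP72 and SRP68. Neighbours in this order were not all separate: SRP19 exceeded SRP9 in 3 of 6 libraries and SRP68 exceeded SRPRA in 4 of 6. In S34F, SRP9 had rank 2 and SRP19 rank 4, and in WT, SRP19 had rank 3 and SRP9 rank 4.

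**Figure D1:**
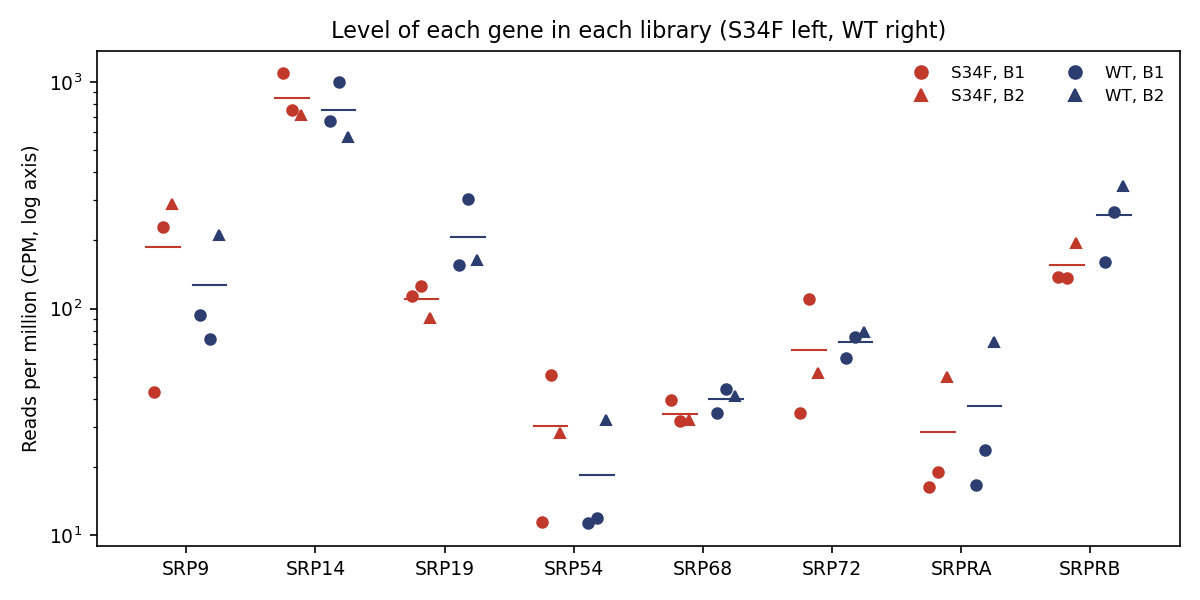
Level of each gene in CPM on a log axis, with S34F libraries left and WT libraries right, circles for B1 and triangles for B2, and a line at each genotype's mean. The genotypes are apart in SRP19 alone, with S34F libraries at 90.7 to 125 CPM and WT libraries at 155 to 303 CPM.

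SRP19 is the S-domain protein that binds the 7SL RNA early in assembly and prepares it for SRP54. Its gene lies at chr5:112196886-112227731 on the plus strand (hg19), and the main model has 5 exons. The intron before exon 5 starts at position 112200430, and exon 5 begins either at 112203069, the upstream site, or 32 bases further on at 112203101, the downstream site, and runs to 112203632 in both cases. The coding sequence reads through this junction, so the site sets the end of the protein. Below are the letters across the junction from the matching GENCODE transcripts, beginning with the last 24 bases of exon 4; capitals in the longer form mark the in-frame stop codon, which is also the last 3 bases of intron when the downstream site is used.
SRP19 longer form (ENST00000282999): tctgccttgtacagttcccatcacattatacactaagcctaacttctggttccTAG
SRP19 shorter form (ENST00000505459): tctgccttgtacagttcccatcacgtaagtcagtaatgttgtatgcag
With all 5 exons, the longer form ends at that stop after 110 codons, and the shorter form goes on to 144 codons, the full-length reading frame.

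In S34F cells the upstream site took nearly as many SRP19 reads as the downstream site, and in WT cells the downstream site took most reads. S34F replicates 1, 2 and 3 had 35 of 68, 22 of 57 and 47 of 94 reads at the upstream site, which is 51.5% (95% exact binomial interval 39.0 to 63.8%), 38.6% (26.0 to 52.4%) and 50.0% (39.5 to 60.5%). WT replicates 1, 2 and 3 had 32 of 252, 47 of 354 and 43 of 271, which is 12.7% (8.85 to 17.5%), 13.3% (9.92 to 17.3%) and 15.9% (11.7 to 20.8%). The genotypes did not overlap, and no interval of an S34F library reached one of a WT library. Intervals here cover counting error only.

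The mean share was 46.7 ± 7.05% in S34F and 13.9 ± 1.69% in WT (SD, n = 3 each), a difference of 32.7 percentage points. It was 32.05 points among the B1 libraries and 34.1 points between the B2 libraries. Isolate MT2 was sequenced in both, at 38.6% in B1 and 50.0% in B2, a gap larger than any within WT.

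**Figure D2:**
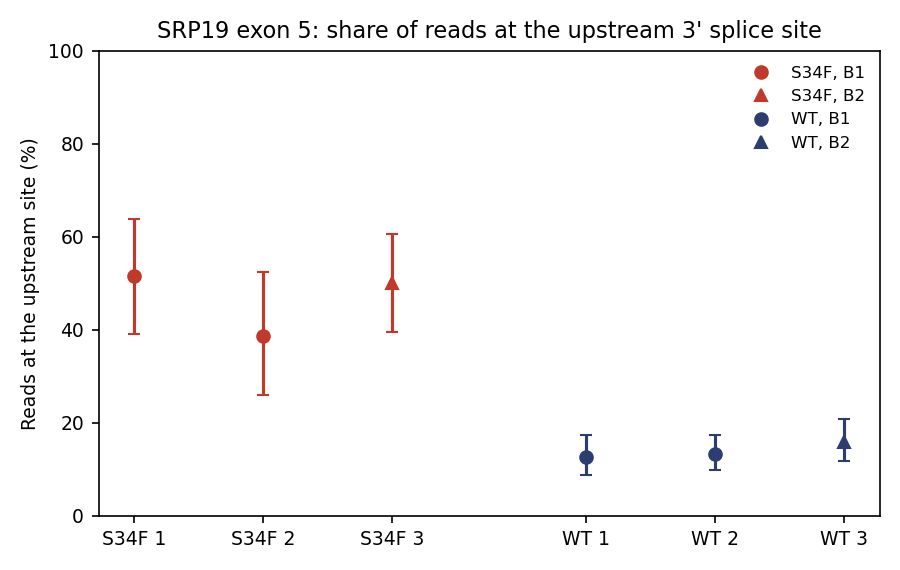
Share of SRP19 reads at the upstream site of exon 5 in percent, for each S34F library (left) and WT library (right), with 95% exact binomial intervals. S34F libraries lie between 38.6% and 51.5%, and WT libraries between 12.7% and 15.9%.

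The mean levels of both forms differed, in opposite directions. The libraries are bulk, so fewer cells with a message and less of it per cell cannot be told apart. The longer form, summed over messages with and without exon 3, stood at 57.5, 46.7 and 44.4 CPM in S34F libraries, against 19.1, 39.9 and 25.6 CPM in WT libraries. The shorter form, summed over messages with and without exons 2 and 3, stood at 54.2, 74.3 and 44.4 CPM in S34F libraries, against 131, 260 and 136 CPM in WT libraries. Neither form overlapped between the genotypes, but the longer form came close to it. S34F replicate 3 (44.4 CPM) and WT replicate 2 (39.9 CPM) each rest on 47 reads of that form, and S34F replicate 2 on 22. No counting interval was computed for these levels. The longer form was on average 1.76 times as abundant in S34F, and the shorter form 0.328 times as abundant. Summed over all forms, SRP19 was at 113, 125 and 90.7 CPM in S34F libraries, against 155, 303 and 164 CPM in WT libraries. The fitted log2 ratio of S34F over WT was -0.91, given as a description.

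**Figure D3:**
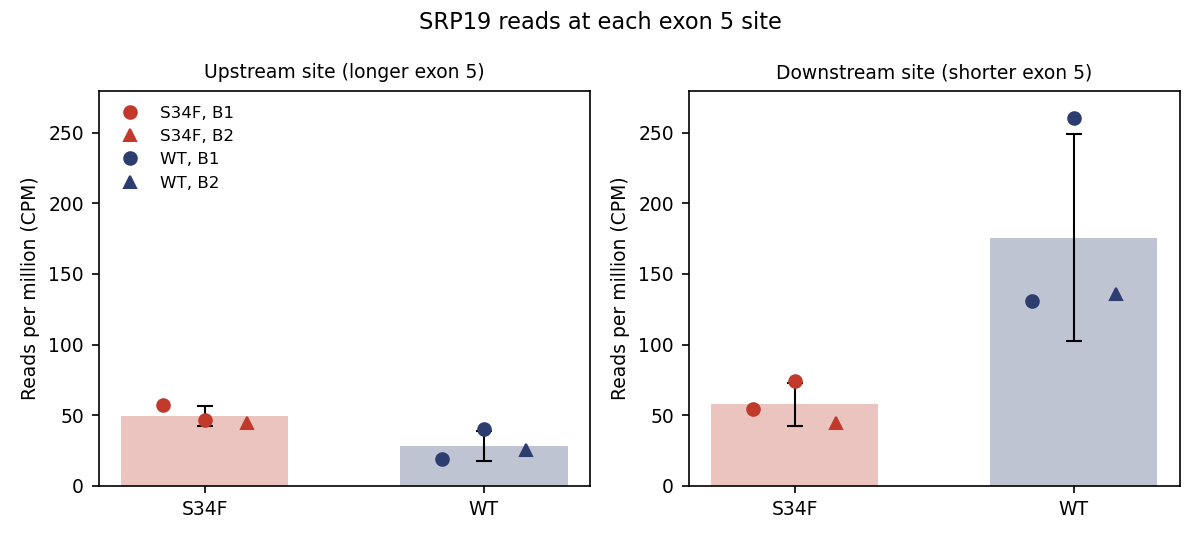
SRP19 level in CPM at each exon 5 site, with bars at the mean, error bars of 1 SD (n = 3) and a point per library, S34F left and WT right. The longer form averages 49.5 CPM in S34F and 28.2 CPM in WT, and the shorter form 57.6 CPM in S34F and 176 CPM in WT.

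Since each read was assigned to a whole isoform model, the exon 5 site can be counted together with the exons before it. Whether every read spans its model is not given. Exon 3 (72 bases, in frame) was included in 82.6% of S34F reads and 81.0% of WT reads on average, and exon 2 (76 bases, which shifts the frame) in 86.3% and 83.4%, and for both exons the libraries of the genotypes overlapped. Among reads with exons 2 and 3, the upstream site took 24 of 41, 18 of 48 and 39 of 71 reads in S34F libraries, against 28 of 199, 32 of 215 and 27 of 188 in WT libraries. Among reads that skip exon 3, it took 11 of 15, 4 of 5 and 8 of 14 in S34F libraries, against 4 of 26, 15 of 76 and 16 of 47 in WT libraries. The genotypes were therefore apart on both kinds of message. The upstream share was higher on messages without exon 3 than on those with it in 6 of 6 libraries, by as little as 1.31 points in WT replicate 1, and several of these shares rest on few reads. The form that skips exon 2 (ENST00000515463) had 25 S34F and 126 WT reads, all at the downstream site, because the authors' isoform set holds no such model with the upstream site.

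The isoforms with at least 10% of SRP19 reads follow from these choices. The shorter form with all 5 exons, which has the full-length frame, made up 24.6%, 50.8% and 33.3% of all SRP19 reads in S34F libraries, against 65.8%, 51.3% and 58.5% in WT libraries. S34F replicate 2 and WT replicate 2, both labelled B1, lay within 1 point of each other. The longer form with all 5 exons made up 34.8%, 30.5% and 40.6% in S34F libraries, against 10.8%, 8.96% and 9.82% in WT libraries. The form without exon 2 took 6.78 to 17.4% in S34F and 10.4 to 17.7% in WT, and the shorter form without exon 3 took 1.69 to 6.25% in S34F and 8.46 to 17.1% in WT. A read-through gene over the locus had 8 reads in all.

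U2AF1 S34F is known from other cells to lower the use of 3′ splice sites with a T just before the AG. The 20 intron bases before SRP19 exons could be read from transcripts that retain them, and are shown to set the exon 5 downstream site beside the others; capitals mark the last 3 bases.
SRP19 exon 2: tatgctattgtctatggCAG
SRP19 exon 3: ttatgtttttaactgttCAG
SRP19 exon 4: ttttgtttcgtttatgtTAG
SRP19 exon 5, downstream site: gcctaacttctggttccTAG
The downstream site of exon 5 and the site of exon 4 end in TAG, and those of exons 2 and 3 in CAG. Of 16457 annotated downstream sites that share a donor with an upstream site in the same exon and end in AG, 71.2% end in CAG, 16.2% in TAG, 10.4% in AAG and 2.27% in GAG. The bases before the upstream site of exon 5 were not read here, so the pair of sites could not be compared. Whether the T before the AG bears on the SRP19 difference was not tested.

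Across the other 7 genes, no gene level differed at an adjusted p under 0.05 in edgeR's quasi-likelihood test with Benjamini-Hochberg adjustment over all 7033 genes tested, where 228 genes (3.24%) were called. The count was also 0 with DESeq2, and 1 of the 7, SRPRB, had an unadjusted p under 0.05, as did 1197 of all genes (17%). Of these 7, 4 had a lower and 3 a higher mean in the fit for S34F, with a median log2 ratio of -0.16, beside a median of 0.02 over all genes tested. Groups that do not overlap were found for 1 of the 8, SRP19, and for 13.1% of all genes tested.

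SRP9 binds SRP14 to form the Alu-domain dimer, and its level varied widely among libraries. It stood at 42.7, 229 and 289 CPM in S34F libraries, against 94.1, 73.8 and 212 CPM in WT libraries. S34F replicate 1 held both the lowest SRP9 and the highest SRP14, and the genotypes overlapped. The log2 ratio was 0.59 ± 0.42 (SE; adjusted p = 0.518, edgeR). This value rested on single libraries: without S34F replicate 1 it was 0.99 with an adjusted p of 0.0233, and without S34F replicate 2 it was -0.22 with an adjusted p of 0.768 (edgeR).

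SRP14 stood at 1091, 748 and 712 CPM in S34F libraries, against 673, 1002 and 572 CPM in WT libraries. The ranges overlapped, and the log2 ratio was 0.20 ± 0.31 (SE; adjusted p = 0.813, edgeR). Partners in 1 dimer did not keep a fixed ratio of reads: SRP14 over SRP9 was 25.5, 3.26 and 2.46 in S34F libraries, against 7.15, 13.6 and 2.70 in WT libraries. In S34F replicate 1, the library with the ratio of 25.5, SRP9 rests on 26 reads. That library also had the lowest TMM scaling factor, 0.768, against 0.946 to 1.14 in the others. Genes such as SRP9, SRP14, SRP68 and SRP72 have processed copies elsewhere in the genome, and no source used here says how reads were assigned between copies.

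SRP54, the GTPase that binds signal sequences, was read shallowly, with 7, 24 and 30 reads in S34F libraries and 19, 14 and 54 reads in WT libraries. Its levels of 11.5, 51.0 and 28.3 CPM in S34F, against 11.3, 11.9 and 32.1 CPM in WT, overlapped (log2 ratio 0.72 ± 0.48, SE; adjusted p = 0.487, edgeR). S34F replicate 2 set the sign, since the log2 ratio was -0.13 without it. Its 16-exon model (ENST00000216774) made up 71.4 to 83.3% of reads in S34F and 81.5 to 89.5% in WT, and a 15-exon model 4.17 to 16.7% in S34F and 7.14 to 10.5% in WT. SRP68 and SRP72 form the other dimer of the particle. SRP68 was the steadiest of the 8, at 39.4, 31.9 and 32.1 CPM in S34F libraries, against 34.6, 44.1 and 41.0 CPM in WT libraries (log2 ratio -0.21 ± 0.31, SE; adjusted p = 0.795, edgeR). SRP72 stood at 34.5, 110 and 52.0 CPM in S34F libraries, against 60.8, 74.7 and 78.5 CPM in WT libraries. Its S34F values lay on both sides of WT (log2 ratio -0.16 ± 0.37, SE; adjusted p = 0.876, edgeR), and the sign turned to 0.13 without S34F replicate 1, 0.08 without S34F replicate 3 and 0.05 without WT replicate 3.

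The receptor subunits were both lower on average in S34F, without passing the test. SRPRB, the membrane-anchored GTPase, stood at 138, 136 and 195 CPM in S34F libraries, against 161, 266 and 346 CPM in WT libraries. The highest S34F library exceeded the lowest WT library, and the log2 ratio was -0.70 ± 0.29 (SE; unadjusted p = 0.0262, adjusted p = 0.223, edgeR), with -0.59 among B1 and -0.83 between B2 libraries. SRPRA, which docks with SRP54, stood at 16.4, 19.1 and 50.1 CPM in S34F libraries, against 16.7, 23.8 and 71.4 CPM in WT libraries. In both genotypes B2 was the high library, and the log2 ratio was -0.34 ± 0.34 (SE; adjusted p = 0.674, edgeR). Within isolate 2, the SRPRA level was 1.37 log2 units higher in B2 than in B1 in S34F, and 1.57 log2 units higher in WT, so for this gene the B label went with a larger difference than the genotype.

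**Figure D4:**
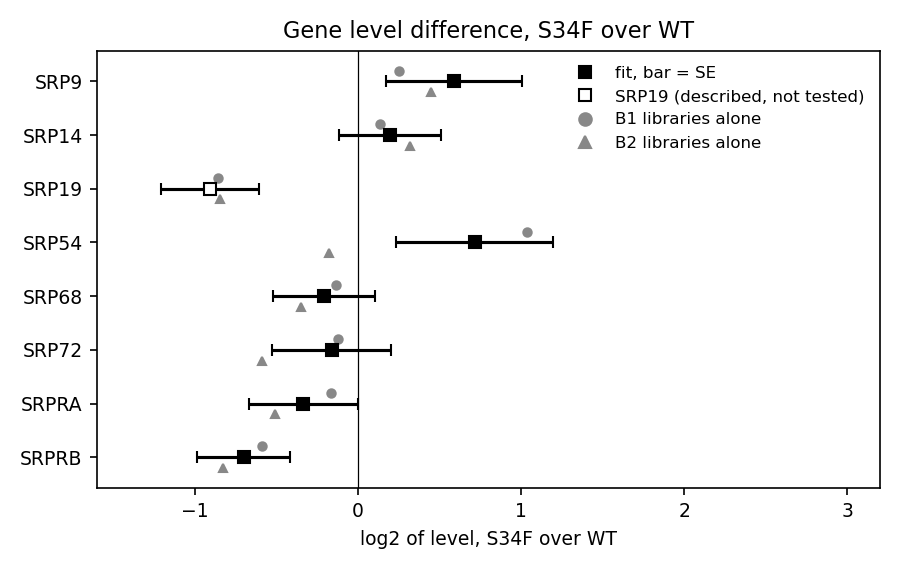
Log2 ratio of level, S34F over WT, for each gene, as fitted across all libraries (squares, bars of 1 SE) and from log2 CPM of the B1 libraries (grey circles) and the B2 libraries (grey triangles) alone. SRP19 (open square) lies at -0.91 and is described and not tested, so its bar is not to be read as a test. In these log2 CPM values, SRP54 is the 1 gene with B1 and B2 of opposite sign, at 1.04 and -0.18. For SRP72 the B1 value is -0.12 here, while the edgeR fit to B1 libraries alone gave 0.071.

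Isoform use and splicing were compared in the members with enough reads. Of the 7 genes, 4 could be tested for isoform use (edgeR diffSpliceDGE, Simes) and 0 were called, beside 14 of 2276 genes (0.615%); 1 of the 4, SRP9, had an unadjusted p under 0.05 and an adjusted p of 0.401. A gene-level F test also called 0. Of their 27 splicing events, 20 had at least 10 informative reads in every library, and 1 was called, beside 225 of 18326 events (1.23%). For the choice of 3′ end, 0 of 4 were called, beside 20 of 2387 genes (0.838%), and 1 of the 4, SRP72, had an unadjusted p under 0.05; limma on log odds called 0 as well.

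The event called was a cassette exon of SRP9, included less often in S34F. Among reads that join the usual exons on both sides, those with the exon were 1 of 23, 4 of 97 and 13 of 263 in S34F libraries, which is 4.35%, 4.12% and 4.94%. In WT libraries they were 18 of 138, 10 of 74 and 48 of 320, which is 13.04%, 13.5% and 15%. The genotypes did not overlap, with means of 4.47 ± 0.42% in S34F and 13.9 ± 1.02% in WT (SD, n = 3 each). The log2 odds ratio was -1.76 ± 0.44 (SE; adjusted p = 0.00743, edgeR over all events). In S34F replicate 1 this share rests on 1 read, and its exact interval, 0.11 to 21.9%, covers the WT values. The call was lost without the B1/B2 term (adjusted p = 0.0845, edgeR) and with limma on log odds (adjusted p = 0.454). Unlike the edgeR fit, limma also weighs the exon's own spread between libraries. Replicates 2 and 3 of each genotype share an isolate, and no fit of events with these libraries summed was run.

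Other SRP9 models hold the same exon, joined to a further exon or to an acceptor inside the last exon, and were not part of that comparison. Over all SRP9 reads, the exon was in 7.69%, 6.48% and 9.15% in S34F libraries (2, 7 and 28 reads). In WT libraries it was in 18.99%, 18.4% and 17.4% (30, 16 and 62 reads). The genotypes did not overlap on this count either, with a smaller ratio between their means, 7.77 ± 1.34% in S34F and 18.3 ± 0.79% in WT (SD, n = 3 each); it was not tested.

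The size of the SRP9 difference moved little with the libraries used, and its call did. Leaving out 1 library at a time gave log2 odds ratios of -1.78 to -1.74, with adjusted p = 0.0566 without S34F replicate 2, 0.473 without S34F replicate 3 and 0.457 without WT replicate 3 (edgeR). The share in S34F minus that in WT was -9.04 points among B1 libraries and -10.1 points between B2 libraries. The 4-exon form with the exon made up 3.85%, 3.70% and 4.25% of all SRP9 reads in S34F libraries, against 11.4%, 11.5% and 13.5% in WT libraries, and the 3-exon form 84.6%, 79.6% and 79.7% in S34F libraries, against 70.3%, 69.0% and 73.9% in WT libraries. Among the other SRP9 events tested, the use of the usual acceptor of the last exon, over one 19 bases further in, did not pass (log2 odds ratio -0.55 ± 0.48, SE; adjusted p = 0.795, edgeR).

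**Figure D5:**
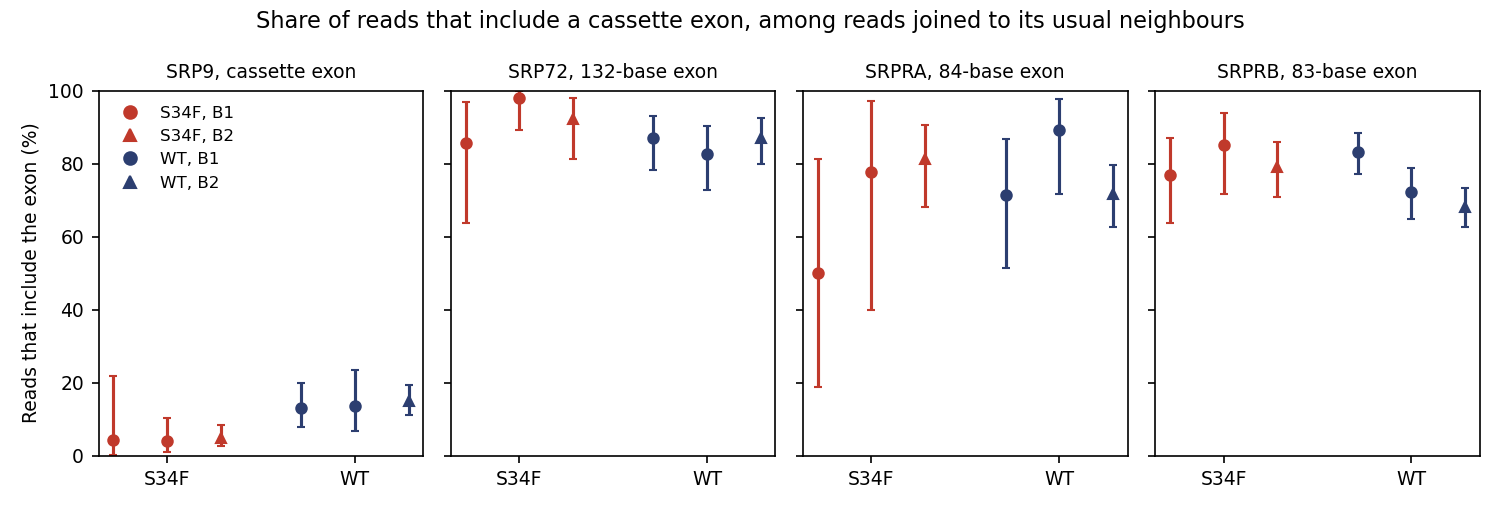
Share of reads that include a cassette exon of SRP9, SRP72, SRPRA and SRPRB in each library, in percent with 95% exact binomial intervals, S34F left and WT right. Reads counted are those that join the usual exons on both sides. The genotypes are apart in SRP9, at 4.12 to 4.94% in S34F and 13.04 to 15% in WT, and overlap in the other 3.

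SRP14, with the most reads, had no called event among 12. Its 4-exon form with the long 3′ end (ENST00000558720) made up 50.0 to 55.7% of reads in S34F and 48.5 to 54.9% in WT. The same exons with the near end and a retained first intron made up 15.9 to 19.6% in S34F and 16.9 to 20.7% in WT. The 5-exon form with the near end (ENST00000267884) made up 15.1 to 18.6% in S34F and 18.6 to 20.02% in WT. The distal of its 3′ ends, 302 bases beyond the near one, took 393 of 664, 198 of 352 and 458 of 754 reads in S34F libraries, against 597 of 1129, 685 of 1181 and 560 of 961 in WT libraries, and the shares overlapped (log2 odds ratio 0.14 ± 0.21, SE; adjusted p = 0.975, edgeR). Inclusion of the 33-base exon 3 between its usual neighbours was 97.9% in S34F and 98.3% in WT on average, with overlapping libraries.

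The 19-exon model of SRP72 (ENST00000342756) made up 66.7 to 84.6% of reads in S34F and 52.3 to 68.2% in WT. Of its 18-exon models with the distal end, one made up 7.69 to 19.05% in S34F and 12.9 to 23.9% in WT, and the other 1.92 to 14.3% in S34F and 11.8 to 15.9% in WT.

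In SRP72, a 132-base exon at chr4:57349305-57349436 was included in 18 of 21, 48 of 49 and 47 of 51 reads in S34F libraries, against 80 of 92, 67 of 81 and 107 of 123 in WT libraries. S34F replicate 1 fell among the WT libraries (log2 odds ratio 1.19 ± 0.60, SE; adjusted p = 0.515, edgeR). The distal 3′ end of SRP72 took 7 of 21, 5 of 49 and 10 of 51 reads in S34F libraries, against 27 of 92, 35 of 81 and 33 of 123 in WT libraries, also with overlap (log2 odds ratio -1.06 ± 0.47, SE; adjusted p = 0.472, edgeR). The exon and the end are not separate measurements, because the model that lacks the exon is one of those with the distal end. The SRP68 model of 2492 bases (ENST00000307877) made up 38.2 to 66.7% of reads in S34F and 36.2 to 43.1% in WT, the model of 2484 bases 6.67 to 25% in S34F and 17.3 to 30.4% in WT, and a 12-exon model 0 to 23.5% in S34F and 12.1 to 26.9% in WT. In SRP68, exon 2 has a pair of acceptors 8 bases apart, and the upstream one took 13 of 19, 14 of 15 and 20 of 26 reads in S34F libraries, against 36 of 51, 29 of 38 and 34 of 55 in WT libraries (log2 odds ratio 0.74 ± 0.57, SE; adjusted p = 0.768, edgeR).

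Both receptor genes had exon skipping. The 84-base exon 2 of SRPRA at chr11:126137898-126137981 (minus strand) is in frame, and messages with and without it have 638 and 610 codons; it is the difference between both SRPRA models in the set, and is shown whole.
SRPRA exon 2: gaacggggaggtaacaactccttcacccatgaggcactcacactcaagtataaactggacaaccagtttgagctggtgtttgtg
It was included in 5 of 10, 7 of 9 and 43 of 53 reads in S34F libraries, against 20 of 28, 25 of 28 and 86 of 120 in WT libraries. The shares overlapped, and with 9 reads in S34F replicate 2 the exon was not tested. In SRPRB, an 83-base exon at chr3:133529961-133530043 was included in 43 of 56, 40 of 47 and 98 of 124 reads in S34F libraries, against 154 of 185, 122 of 169 and 209 of 307 in WT libraries (log2 odds ratio 0.53 ± 0.34, SE; adjusted p = 0.680, edgeR). A 137-base SRPRB exon at chr3:133534434-133534570 was included in 43 of 55, 40 of 46 and 98 of 126 reads in S34F libraries. In WT libraries it was in 154 of 186, 122 of 174 and 209 of 300 (log2 odds ratio 0.55 ± 0.34, SE, adjusted p = 0.658, edgeR). The same reads include both SRPRB exons, so they are not separate measurements. No SRPRB model carries an annotated transcript ID. The 7-exon model of 1755 bases made up 30.1 to 50.0% of reads in S34F and 19.6 to 42.6% in WT, and that of 1637 bases 12.5 to 17.5% in S34F and 11.2 to 16.4% in WT. The 6-exon models made up 10.9 to 15.5% and 9.38 to 14.3% in S34F, against 11.5 to 16.9% and 11.9 to 16.6% in WT. A 2-exon model that holds the end of the gene made up 19.05%, 17.2% and 25.7% of SRPRB reads in S34F libraries, against 18.9%, 29.4% and 31.3% in WT libraries. A locus on the opposite strand overlaps the last SRPRB exon and had 18, 17 and 103 reads in S34F libraries, against 40, 81 and 296 in WT libraries; whether counting used strand is not given, and its part in the SRPRB level was not tested.

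The genes that act after or beside the SRP did not pass the test either. The list held 51 genes of the SEC61 channel, the TRAP complex, signal peptidase, oligosaccharyltransferase, and the GET, SND and EMC routes, with 7SL RNA and nascent-chain factors; 47 were measured and 45 tested, and 0 were higher and 0 lower at an adjusted p under 0.05 (edgeR), with 2 at an unadjusted p under 0.05 and 0 by DESeq2; over all genes tested, 3.24% were called and 17% had an unadjusted p under 0.05. Of the 45, 33 had a positive log2 ratio of S34F over WT, as did 3628 of all 7033 genes tested (51.6%), with a median of 0.13 beside 0.02 over all genes. The 7SL genes RN7SL1 and RN7SL2 had no entry in the table, and the cDNA was primed on poly(A). Ratios were positive for all 4 TRAP genes tested (median 0.30) and all 4 SND and nascent-chain genes (median 0.27). They were also positive for 5 of 7 GET genes (median 0.35) and 9 of 11 oligosaccharyltransferase genes (median 0.13). The same held for 4 of 5 signal peptidase genes (median 0.12) and 4 of 6 channel genes (median 0.03). Of 8 EMC genes, 5 had negative ratios (median -0.17). Differences between these groups were not tested.

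The 4 list genes with the smallest p-values were all higher on average in S34F and none was called. NACA, which binds nascent chains and keeps the SRP off those without a signal, stood at 299, 471 and 229 CPM in S34F libraries, against 221, 254 and 138 CPM in WT libraries (log2 ratio 0.71 ± 0.28, SE; adjusted p = 0.218, edgeR). MAGT1, an oligosaccharyltransferase subunit, had a log2 ratio of 0.90 ± 0.37 (SE; adjusted p = 0.224, edgeR). UBL4A, of the tail-anchored protein route, had 0.63 ± 0.31 (SE; adjusted p = 0.314, edgeR). DAD1, another oligosaccharyltransferase subunit, stood at 662, 576 and 491 CPM in S34F libraries, against 382, 467 and 335 CPM in WT libraries, with no overlap (log2 ratio 0.55 ± 0.28, SE; adjusted p = 0.346, edgeR). EMC2, with 1, 17 and 8 reads in S34F libraries, against 2, 10 and 8 reads in WT libraries, did not pass the filter on low counts and is not among the 45. Without S34F replicate 1 it passed the filter and was the 1 list gene called (log2 ratio 2.11, adjusted p = 0.0175, edgeR).

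The genes whose log2 CPM followed SRP19 most closely over the 6 libraries were GPATCH4 (Pearson r = 0.98), MKKS (r = 0.98) and PIGP (r = 0.98). For the others the closest was DDX5 for SRP9, DBI for SRP14, PON2 for SRP54, FKBP9P1 for SRP68, RBM27 for SRP72, COPA for SRPRA and NOMO2 for SRPRB, with r between 0.97 and 1.00. These values rest on 6 points from 4 isolates and were not tested. Among the 7033 genes tested at gene level, 9 had r over 0.95 with SRP19, 7 with SRP68 and 165 with SRPRA.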

How the data were processed

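The deposited table holds read counts per isoform in 6 libraries, with the authors' isoform models in a GTF file; per the labels' protocols, poly(A)-primed Smart-Seq2 cDNA was sequenced on a MinION. Coordinates are those of hg19, the build named per the submitters' processing notes; no source used here gives the settings of the isoform caller. Isoforms were assigned to genes by their Ensembl gene ID, and 10832 of 11034 IDs had a symbol.

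Gene sums were tested with edgeR 4.0.16 (TMM, filterByExpr, quasi-likelihood, B label and genotype as terms), and CPM is scaled to the reads of the genes tested, after TMM. Isoform use was tested with diffSpliceDGE. Splicing events and 3′ ends (merged within 100 bases) were built from the exon chains, as pairs of read counts per library with at least 10 reads in each, and fitted in edgeR with library terms. The SE beside an edgeR ratio was worked back from its test, as the ratio's size divided by the square root of the F statistic. DESeq2 1.42.0 and limma 3.58.1 were alternatives. The edgeR fits of gene levels, isoform use and paired read counts were tested on simulated data, and the other steps were not. Sequences come from GENCODE release 29 transcripts, matched by transcript ID and exon lengths.

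Members and gene lists were chosen with earlier results of these data known. The text names all members, the isoforms with at least 10% of a member's reads, the 4 list genes with the smallest p (12 at most had any been called), and the genes most correlated with each member (3 for SRP19, 1 for each other, log2 of CPM plus 1). Replicate numbers, shared by the genotypes, paired libraries in the replicate block alone, an alternative setting, and the main fits did not pair them. Deviations from genotype means correlated at 0.48, 0.149 and 0.837 for numbers 1, 2 and 3. Within B1, unlike numbers correlated as much (0.526 for S34F 1 with WT 2, 0.307 for S34F 2 with WT 1), so the values follow the B label and do not separate numbers 1 and 2.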

Additional observations from a re-analysis of the deposited data

How the results depend on the processing

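The SRP19 site difference of 32.7 points ranged from 30.3 to 36.8 points with 1 library left out, and was 32.05 points with B1 libraries alone, 35.0 with isolate 2 libraries summed and 30.9 with annotated isoforms alone; restricting to whole exons changed nothing, since all counted isoforms hold them. With the replicate block, 187 genes were called at gene level, 0 members, 0 list genes and 1 member event (SRP9 exon, adjusted p = 0.0366, edgeR); it changed no other call among these results. Genes called at gene level numbered 491 with no filter, 2 without the B1/B2 term, 79 in B1 alone, 0 with isolate 2 summed (0 of 8614 tested) and 67 to 655 with 1 library left out. Members called ranged from 0 to 1, and list genes from 0 to 1, with 1 library left out. Member events called were 0 without the B1/B2 term (SRP9 exon adjusted p = 0.0845, edgeR), 0 with limma on log odds (adjusted p = 0.454) and 0 to 1 with 1 library left out; the causes were not tested. With 1 library left out, log2 ratios ranged from -0.22 to 0.99 for SRP9, -0.13 to 1.37 for SRP54 and -0.79 to 0.13 for SRP72. They changed sign for SRP9 (-0.22) and SRP54 (-0.13) without S34F replicate 2, and for SRP72 with B1 alone (0.071), without S34F replicate 1 (0.13), without S34F replicate 3 (0.08) and without WT replicate 3 (0.05). Depth limits SRP54, SRP68, SRP72 and SRPRA, with under 60 reads in every S34F library.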
